A study of Mus musculus with 6 samples.

Results

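Heterotrimeric G proteins and the proteins that regulate them were followed in 6 single olfactory sensory neurons. The members were taken by gene symbol: 16 G alpha, 5 G beta and 12 G gamma subunit genes, 21 RGS genes, 6 receptor kinase (Grk) genes, 2 beta-arrestin genes and the pair Ric8a and Ric8b. They make up 64 of the 55341 genes in the table, and all 64 are annotated as protein coding. The neurons were taken from the olfactory epithelium of wild type C57BL/6 mice aged 6 weeks. Each was recorded from physiologically, frozen and turned into its own CEL-Seq2 library, a method that tags each RNA molecule and reads mainly its 3' end. All cells belong to 1 group without a treatment. Neither the animal a neuron came from nor its recorded response is labelled, so the neurons, called cells 1 to 6, are described one by one with counting intervals and without p-values.

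Total counts ran from 8613 in cell 1 to 122546 in cell 3, with a median of 28501.5. Cells 1 to 6 had counts for 3058, 7728, 11670, 9584, 6382 and 2855 genes. Cell 6 thus had fewer genes than cell 1, though it had more counts (11725). Levels are given in CPM, a count divided by its cell's total and scaled up alike for all cells, and a single count was worth between 8.16 CPM in cell 3 and 116 CPM in cell 1. Markers of mature olfactory neurons were present in each cell: the 9 listed genes summed to between 18834 and 36224 CPM. Of the 9, 5 were counted in every cell, and cell 6 had no count of Cnga2, Ano2, Rtp1 or Cngb1. Markers of other cells were present too. Gland and secretory markers summed to 6850, 19781, 930, 361, 5150 and 0 CPM in cells 1 to 6. Sustentacular cell markers reached 1479 CPM in cell 2 and 887 CPM in cell 4, and at most 245 CPM in the other cells. Red blood cell markers came to 1742, 4264, 4080, 12610, 2575 and 171 CPM in cells 1 to 6. Of the vomeronasal neuron markers Trpc2, Calr4 and Vmn1r1 no count was found. The basal and precursor, microvillar and tuft, immune, glial and endothelial lists stayed at or under 65.7 CPM in each cell.

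In the cilia of an olfactory neuron an odorant receptor loads GTP onto the alpha subunit Golf, encoded by Gnal, which parts from its beta and gamma subunits and switches on the adenylyl cyclase encoded by Adcy3. Gnb1 and Gng13 encode the beta and gamma subunits known from this site, and Ric8b encodes a factor that helps Golf to be made and reloaded. RGS proteins speed up GTP hydrolysis and so end the signal, while receptor kinases mark active receptors for binding by beta-arrestins. Gnao1 encodes Go, an alpha subunit that is abundant in neurons and in growing axons and does not stimulate adenylyl cyclase.

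A small set of members carried most of the signal. Gnal, Gnao1, Gnb1, Gng13 and Ric8b were counted in each of the 6 cells and together gave 1886 of the 2147 member counts. Their share of member counts lay between 86.3% in cell 4 and 92.8% in cell 1. Of the 64 members, 30 had a count in at least 1 cell (46.9%), close to the 49.8% of all protein-coding genes. Counted in every cell were 5 of 64 (7.81%), against 2.89% of protein-coding genes. Over all genes in the table, coding or not, 29.8% were counted in a cell and 1.5% in every cell. The remaining 25 counted members were sparse, and 9 of the 30 never exceeded 2 counts in a cell. All members together made up 0.716% to 0.964% of a cell's counts.

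The deeper libraries showed more members. Cells 1 to 6 had counts for 8, 16, 24, 22, 14 and 8 members. After thinning to 8613 counts, the total of cell 1, the medians of 20 draws were 8, 9, 10.5, 12.5, 10 and 8 members. Detection in a cell is therefore given with the limit that its depth sets: 3 counts equal 348, 87.0, 24.5, 49.3, 133 and 256 CPM in cells 1 to 6.

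**Figure D1:**
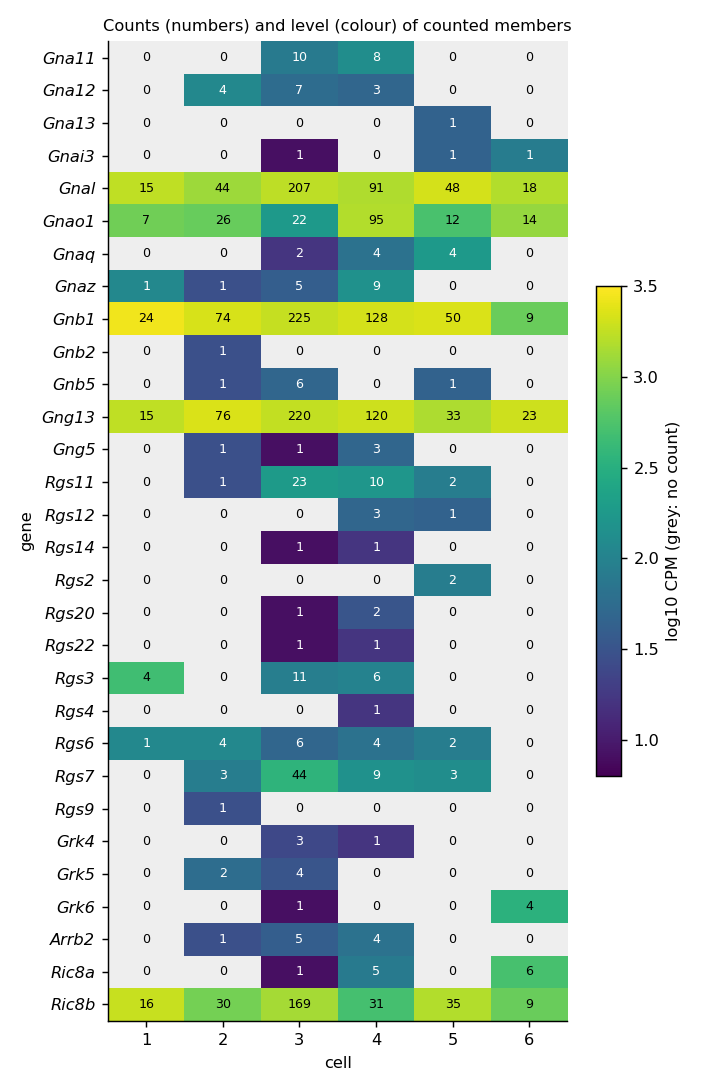
Counts (numbers) and levels (colour, log10 CPM; grey, no count) of the 30 counted members, with genes down the page and cells 1 to 6 across. The rows of Gnal, Gnao1, Gnb1, Gng13 and Ric8b are filled in all 6 cells, and most other counts fall in cells 3 and 4.

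Gnal, the Golf alpha subunit (chromosome 18, 67088216 to 67226792, plus strand, GRCm38), stood at 1742, 1276, 1689, 1494, 2131 and 1535 CPM in cells 1 to 6. In CPM its 95% Poisson intervals overlapped between all cells, reaching from 927 to 1713 CPM in cell 2 and from 1571 to 2825 CPM in cell 5. The ratio of cell 5 to cell 2, the highest and the lowest cell, was 1.67 (95% interval 1.09 to 2.57). With TMM, another way to scale libraries, cell 3 was highest, at 2451 CPM, and cell 6 lowest, at 976 CPM. Their ratio was then 2.51. By counts, Gnal ranked 35 in cell 5 and 75 in cell 6 among all genes, and in between elsewhere.

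Gnao1, which encodes Go (chromosome 8, 93809966 to 93969388, plus strand), was the second alpha subunit found in every cell. It had 7, 26, 22, 95, 12 and 14 counts in cells 1 to 6, which gave 813, 754, 180, 1560, 533 and 1194 CPM. Cell 4 was highest and cell 3 lowest, and their intervals of 1262 to 1907 CPM and 113 to 272 CPM were far apart. The ratio of cell 4 to cell 3 was 8.69 (95% interval 5.42 to 14.5), while that of Gnal for the same cells was 0.885 (0.684 to 1.14). Cells 3 and 4 are the libraries with the most counts. The ratio was 7.42 with TMM scaling and 8.49 with size factors, a further way to scale libraries. Without cell 3 the highest to lowest ratio, of cell 4 to cell 5, was 2.93 (95% interval 1.60 to 5.87).

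The makeup of the counted alpha subunit pool, which does not depend on the scaling of a library, also differed between cells. Gnas entered these shares at 0 counts, a value that is uncertain, as set out below. Gnal gave 65.2%, 58.7%, 81.5%, 43.3%, 72.7% and 54.5% of G alpha counts in cells 1 to 6. Gnao1 gave 30.4%, 34.7%, 8.66%, 45.2%, 18.2% and 42.4%. In cell 3 Gnal outnumbered Gnao1 with 207 counts against 22, whereas in cell 4 the counts were 91 and 95. Of the counts of both genes, Gnao1 had 51.1% in cell 4 (95% Clopper-Pearson interval 43.7% to 58.5%) and 9.61% in cell 3 (6.12% to 14.2%). The intervals of cells 1, 2 and 6 were wide, from 13.9% to 54.9% in cell 1, and overlapped with that of cell 4. Divided by exon length, the Gnao1 part of both genes was 51.3% in cell 4 and 9.70% in cell 3, since their exons cover 11172 bases for Gnal and 11053 for Gnao1.

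**Figure D2:**
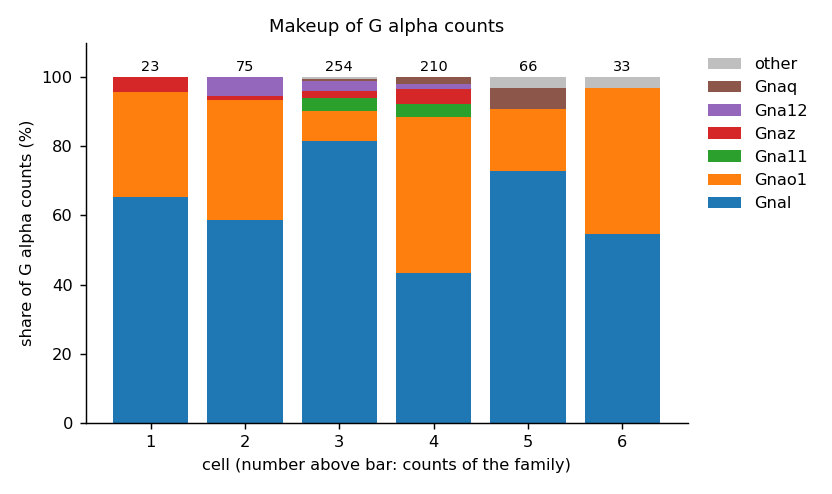
Share of each cell's G alpha counts (%) held by each alpha subunit gene, with the number of G alpha counts above each bar and cells 1 to 6 across. Gnal takes 81.5% in cell 3 and 43.3% in cell 4, where Gnao1 takes 45.2%.

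Marker transcripts were uneven between the same cells. The immature neuron markers Gap43, Stmn1, Stmn2, Marcksl1, Dpysl3, Tubb3 and Crmp1 were all found in at least 1 cell, and their sums were 697, 1595, 996, 3284, 2353 and 2985 CPM in cells 1 to 6. Cells 4 and 6, with the highest Gnao1 levels in CPM, also had the highest sums. The Gnao1 interval of cell 6 (653 to 2003 CPM) overlapped with those of all cells but cell 3. With TMM scaling cell 2 had more Gnao1 than cell 6. In cell 6 the marker sum came from Gap43, Stmn1, Stmn2 and Crmp1, with 8, 10, 7 and 10 counts. Marcksl1, Dpysl3 and Tubb3 had no count there, and Stmn2, at 597 CPM, was lower only in cell 1. Cell 1 had the lowest sum together with 813 CPM of Gnao1, and cell 5 had 2353 CPM of markers together with 533 CPM of Gnao1. Red blood cell markers were likewise highest in cell 4, at 12610 CPM, but at 171 CPM in cell 6. The part of immature transcripts or of other cells' RNA in the Gnao1 levels was not tested.

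The remaining alpha subunits were near the limit of detection. Gna11, of the Gq class that acts on phospholipase C, was seen in cell 3 with 10 counts (81.6 CPM) and in cell 4 with 8 (131 CPM). Gnaz, a Gi relative, had 1, 1, 5 and 9 counts in cells 1 to 4 and none in cells 5 and 6. Gna12 had 4, 7 and 3 counts in cells 2 to 4, and Gnaq had 2, 4 and 4 in cells 3 to 5. Of the 50-base windows near the transcript end of Gna12, 19.3% also occur in Amz1, so part of its counts is uncertain. Gnai3 and Gna13 had 3 counts and 1 count in all. In cells where these genes read 0, at most 2.74 counts were due had they matched the remaining cells pooled, so lower levels were not detectable there.

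No count was found for 8 of the 16 alpha genes: Gnas, Gnai1, Gnai2, Gna14, Gna15 and the transducin and gustducin genes Gnat1, Gnat2 and Gnat3. Over 260789 counts a total of 0 allows up to 11.5 CPM at 3 counts. For Gnas, which encodes the widely used stimulatory alpha subunit, this 0 is uncertain. The predicted gene Gm20721 lies on the other strand over 468 of the last 500 exon bases of Gnas and was not counted either. Without a stated strand setting, reads of the 2 genes cannot be told apart there. None of the other 7 has another gene's exon in its last 500 exon bases.

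Among beta subunits Gnb1 was nearly alone. This gene (chromosome 4, 155491361 to 155559269, plus strand) had 2786, 2146, 1836, 2102, 2220 and 768 CPM in cells 1 to 6. Cells 1 to 5 overlapped in their intervals, and cell 6, with 9 counts (351 to 1457 CPM), lay below them. The ratio of cell 1 to cell 6 was 3.63 (95% interval 1.63 to 8.87). Gnb1 took at least 97.4% of G beta counts in each cell, or 96.5% per kilobase of exon. Gnb5, the beta subunit that pairs with RGS proteins of the R7 class, had 1, 6 and 1 counts in cells 2, 3 and 5. Gnb2 had 1 count in cell 2, and Gnb3 and Gnb4 had none.

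Gng13 was just as dominant among gamma subunits. It lies on chromosome 17 (25717171 to 25719406, plus strand) and had 1742, 2204, 1795, 1970, 1465 and 1962 CPM in cells 1 to 6. The interval of the ratio of cell 2 to cell 5, the highest to the lowest, included 1 (1.5, 0.988 to 2.34). With TMM scaling cell 2 was highest, at 2853 CPM, and cell 1 lowest, at 1163 CPM, a ratio of 2.45. Its share of G gamma counts was between 97.6% and 100%, and the only other gamma gene with counts was Gng5, with 1, 1 and 3 in cells 2, 3 and 4. Gng8, a gamma subunit known from immature olfactory neurons and vomeronasal neurons, had no count in any cell. The other 9 gamma genes without a count were Gng2, Gng3, Gng4, Gng7, Gng10, Gng11, Gng12, Gngt1 and Gngt2. The last 500 exon bases of Gng10 and Gng2 are overlapped by other genes over 485 and 500 bases, so these 2 values are uncertain. Of the 50-base windows near the transcript end of Gng3, 36.7% also occur in Bscl2, so its 0 is uncertain as well. Gng13 itself is overlapped by exons of Chtf18 on the other strand over 399 of its last 500 exon bases, and Chtf18 had 2 counts in all. Of the 50-base windows near the transcript end of Gng13, 43.0% also occur in Chtf18. The levels of Gng13 and its share are therefore uncertain too.

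**Figure D3:**
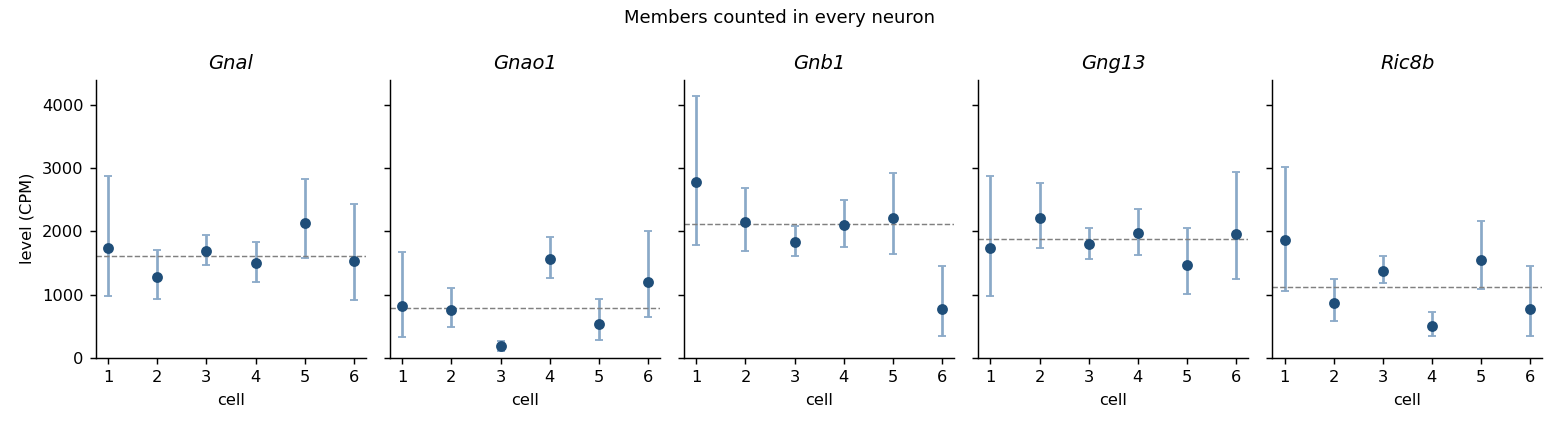
Levels (CPM) of the 5 members counted in every cell, by cell; points are CPM, bars exact 95% Poisson intervals and dashed lines the median of the 6 cells. Gnal stays between 1276 and 2131 CPM, Gnao1 is lowest in cell 3 (180 CPM) and highest in cell 4 (1560 CPM), and Gnb1 has its lowest value, 768 CPM, in cell 6.

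Gng13 and Gnal were even across cells in CPM. Their coefficients of variation were 13.5% and 17.6%, against a median of 47.7% for the 89 genes averaging 1000 CPM or more, and no gene of those 89 varied less than Gng13. Counting error is part of each coefficient and was not removed, with 15 counts of each gene in cell 1, so nothing is read from this rank. The 89 genes also hold markers of other cells, such as Obp1a at 0 to 10267 CPM. The rank rests on the scaling too. With TMM the coefficients were 38.2% and 33.2%, against a median of 49.7% over 93 genes, of which 28 varied less than Gng13. With size factors they were 23.7% and 22.9%, against 45.7% over 90 genes. TMM shifted the whole scale of cells 1 and 6 by -0.58 and -0.65 log2 units and that of cell 3 by 0.54, relative to CPM. Within cells, Gnal held between 36.7% and 59.3% of the summed counts of Gnal and Gng13.

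Ric8b, the Golf exchange factor and chaperone, was the other abundant member (chromosome 10, 84917616 to 85018337, plus strand). It had 1858, 870, 1379, 509, 1554 and 768 CPM in cells 1 to 6, from 16, 30, 169, 31, 35 and 9 counts. Cells 1, 3 and 5 were high, and the interval of cell 4 (346 to 723 CPM) lay below those of these 3 cells. The ratio of cell 1 to cell 4 was 3.65 (95% interval 1.86 to 6.88), 1.97 with TMM and 2.61 with size factors. Set against its client, which needs no scaling, Ric8b held 51.6%, 40.5%, 44.9%, 25.4%, 42.2% and 33.3% of the summed counts of Ric8b and Gnal. Cell 4 was lowest at 25.4% (18.0% to 34.1%), and cell 3 had 44.9% (39.8% to 50.1%).

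Ric8a, which serves other alpha subunits such as the Gi and Gq classes, was found in 3 cells, with 1, 5 and 6 counts in cells 3, 4 and 6. These gave 8.16, 82.1 and 512 CPM. Cell 6 had 6 counts of Ric8a beside 9 of Ric8b, so Ric8b held 60.0% of both there (32.3% to 83.7%), against 99.4% in cell 3 (96.8% to 100%) and 86.1% in cell 4. From the remaining cells pooled, 9.75 counts of Ric8a were due in cell 3, which had 1. That rate rests on the 5 counts of cell 4 and the 6 of cell 6, and cell 6, a library with few counts, raises it. Exons of Sirt3 on the other strand cover 211 of the last 500 exon bases of Ric8a, and Sirt3 had 11 counts, so Ric8a values are uncertain. Cells 4 and 6, where Ric8a was highest, were also the cells with most Gnao1 in CPM. Cells 1, 2 and 5 had no Ric8a count, but at most 1.83 were due there, so lower levels were not detectable. With TMM cell 2 had more Gnao1 than cell 6. A link between the 2 genes was not tested.

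The regions around the start sites of 4 members counted in every cell are shown, since they are the promoters of the abundant members and differ in their CG dinucleotides. Each window runs from 250 bases before to 50 bases after a RefSeq start site in GRCm38.p6, is written 5' to 3' along the gene, and has its CG dinucleotides in capitals. The windows are chr4:155491111-155491410 for Gnb1, chr17:25716922-25717221 and chr17:25717278-25717577 for the 2 starts of Gng13, chr10:84917363-84917662 for Ric8b and chr8:93810588-93810887 for Gnao1, all on the plus strand.
Gnb1: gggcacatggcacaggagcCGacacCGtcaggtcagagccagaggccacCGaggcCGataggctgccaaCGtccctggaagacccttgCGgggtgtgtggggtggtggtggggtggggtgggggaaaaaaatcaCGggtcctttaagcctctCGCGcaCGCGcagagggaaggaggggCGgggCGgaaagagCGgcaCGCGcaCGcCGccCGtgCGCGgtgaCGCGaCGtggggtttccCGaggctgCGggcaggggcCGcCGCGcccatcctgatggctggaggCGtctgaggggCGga
Gng13, first start: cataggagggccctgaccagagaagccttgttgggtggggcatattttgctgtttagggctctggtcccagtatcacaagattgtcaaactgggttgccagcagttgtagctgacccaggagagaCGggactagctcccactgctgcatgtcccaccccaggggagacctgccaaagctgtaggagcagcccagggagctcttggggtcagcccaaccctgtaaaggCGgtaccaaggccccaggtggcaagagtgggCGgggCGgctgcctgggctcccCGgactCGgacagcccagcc
Gng13, second start: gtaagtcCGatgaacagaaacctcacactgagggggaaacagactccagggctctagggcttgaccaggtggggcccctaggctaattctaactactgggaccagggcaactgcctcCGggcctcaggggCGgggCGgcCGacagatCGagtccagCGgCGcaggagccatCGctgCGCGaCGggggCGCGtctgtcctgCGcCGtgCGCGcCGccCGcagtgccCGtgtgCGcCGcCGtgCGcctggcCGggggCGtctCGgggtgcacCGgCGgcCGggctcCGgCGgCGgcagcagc
Ric8b: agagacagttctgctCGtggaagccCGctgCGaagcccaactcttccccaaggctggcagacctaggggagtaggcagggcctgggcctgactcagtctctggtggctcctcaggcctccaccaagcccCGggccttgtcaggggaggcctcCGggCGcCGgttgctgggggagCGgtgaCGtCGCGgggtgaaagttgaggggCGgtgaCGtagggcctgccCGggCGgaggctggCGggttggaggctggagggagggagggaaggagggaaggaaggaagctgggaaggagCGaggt
Gnao1: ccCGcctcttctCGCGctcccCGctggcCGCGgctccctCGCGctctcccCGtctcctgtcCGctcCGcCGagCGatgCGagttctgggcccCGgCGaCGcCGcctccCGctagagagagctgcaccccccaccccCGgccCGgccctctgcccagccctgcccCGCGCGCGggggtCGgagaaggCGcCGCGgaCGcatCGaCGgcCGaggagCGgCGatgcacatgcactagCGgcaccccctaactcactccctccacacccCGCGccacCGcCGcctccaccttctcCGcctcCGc

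The windows held 31, 6, 34, 17 and 42 CG dinucleotides in this order, where the median of the 32851 mouse windows was 7. The first Gng13 window had more of them than 43.6% of all windows, and that of Gnao1 more than 97.0%. Windows were at hand for 46 of the 64 members, 61 windows in all. TAATTA, a homeodomain core that reads the same on both strands, occurred in 1 of the 61 (1.64%), that of Rgs13, against 5.29% of all windows.

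RGS transcripts were low and mostly of the R7 class, whose proteins Rgs6, Rgs7, Rgs9 and Rgs11 bind Gnb5 and act mainly on Gi and Go subunits. This class was singled out after the values were seen. It gave 113 of all 148 RGS counts (76.4%), with 1 of 5, 9 of 9, 73 of 87, 23 of 37 and 7 of 10 in cells 1 to 5. Cell 1 thus differed in order from the rest, on 5 counts. The RGS sum was 581, 261, 710, 608 and 444 CPM in cells 1 to 5, and cell 6 had no RGS count at all. Had cell 6 matched the remaining cells pooled, 6.97 RGS counts would have been due, or 5.65 when cell 3 was left out. The exact Poisson upper bound for a 0 in this cell is 315 CPM, and 3 counts would be 256 CPM. The intervals of the sums in cells 3 and 4, 569 to 876 CPM and 428 to 837 CPM, lay above that bound. Those of cells 1, 2 and 5 started at 188, 119 and 213 CPM and overlapped with it.

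Rgs7 (chromosome 1, 175059087 to 175492500, minus strand) had the highest median of the family. It had 0, 3, 44, 9, 3 and 0 counts in cells 1 to 6, or 87.0, 359, 148 and 133 CPM in cells 2 to 5. Cell 3 was highest, with a ratio to cell 2 of 4.13 (95% interval 1.32 to 20.8) and of cell 4 to cell 3 of 0.412 (0.177 to 0.854). In cells 1 and 6, 2.02 and 2.78 counts were due at the pooled rate, so a lower level was not detectable there. Rgs7 held 50.6% of RGS counts in cell 3 (39.6% to 61.5%) and 24.3% in cell 4 (11.8% to 41.2%).

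Rgs11 had 1, 23, 10 and 2 counts in cells 2 to 5, with 188 CPM in cell 3 and 164 CPM in cell 4, a ratio of cell 4 to cell 3 of 0.875 (0.372 to 1.91). In cell 2 it had 1 count where 5.33 were due. Rgs6 was spread most widely, with 1, 4, 6, 4 and 2 counts in cells 1 to 5, between 49.0 and 116 CPM. Rgs9, known from photoreceptors and striatum, had 1 count in cell 2. Of the anchors of this class, which were listed as pathway genes, Rgs7bp had 3 counts in cell 5, Gpr158 had 7 and Gpr179 had 10 over all cells, and Rgs9bp had none.

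Outside the R7 class, Rgs3 alone had more than 3 counts in a cell. It had 4, 11 and 6 counts in cells 1, 3 and 4, or 464, 89.8 and 98.5 CPM, and none in the other cells. In cell 2, 3.2 counts were due from the other cells. Of its 50-base windows near the transcript end, 15.3% also occur in the predicted gene Gm5763, so part of its counts is uncertain. Rgs12, Rgs14, Rgs2, Rgs20, Rgs22 and Rgs4 had between 1 and 4 counts over all cells. No count was found for Rgs1, Rgs5, Rgs8, Rgs10, Rgs13, Rgs16, Rgs17, Rgs18, Rgs19 and Rgs21. Rgs2, which in other work has been tied to inhibition of the olfactory adenylyl cyclase, had 2 counts, both in cell 5.

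**Figure D4:**
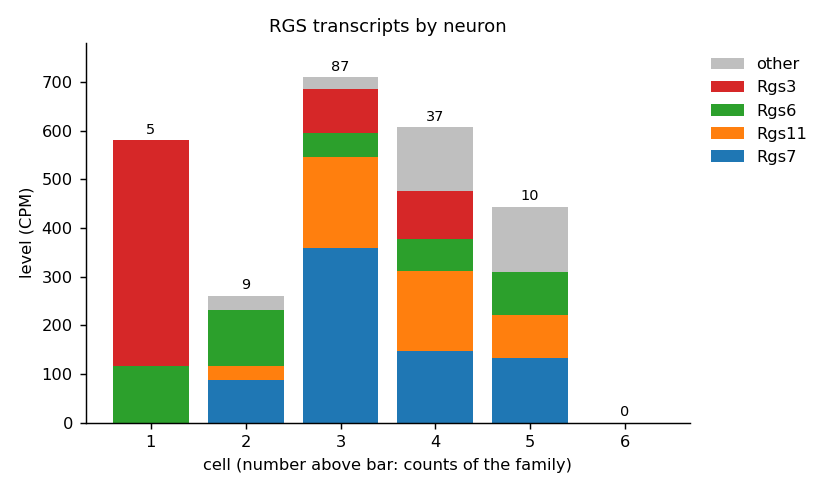
Summed level of RGS transcripts (CPM) by cell, split into Rgs7, Rgs11, Rgs6, Rgs3 and the other RGS genes, with the number of RGS counts above each bar. Cell 3 has 710 CPM from 87 counts, the bar of cell 1 rests on 5 counts, and cell 6 has none.

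Receptor kinases and arrestins were barely seen. Grk3, the kinase known to act on odorant receptors in olfactory neurons, had no count in any cell, nor had Grk1, Grk2 or the arrestin Arrb1. Arrb2, the beta-arrestin linked to odorant receptor internalization, had 1, 5 and 4 counts in cells 2 to 4, at most 65.7 CPM. Grk5 had 2 and 4 counts in cells 2 and 3, Grk4 had 3 and 1 in cells 3 and 4, and Grk6 had 1 in cell 3 and 4 in cell 6 (341 CPM, 93.0 to 873). The 25 counts of these 8 genes came to a median of 84.6 CPM. A Grk3 level above 24.5 CPM in cell 3 or above 11.5 CPM over all cells would have been expected to leave 3 counts.

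The spread of members between cells was set beside that of all genes. With a fixed rule, the ratio of the highest to the lowest cell was taken for genes averaging 100 CPM or more, a cell under 3 counts being set to 3. Past 4-fold were 4 of the 8 members that reached this mean, Gnao1, Rgs3, Rgs7 and Ric8a, against 54.7% of the 1919 genes tested. The mean itself was reached by 8 of 64 members (12.5%), against 7.17% of protein-coding genes. Of the 5 members averaging 200 CPM or more 1, Gnao1, was past 4-fold, against 55.6% of the 694 genes at that level. Rgs3, Rgs7 and Ric8a reached the mean of 100 CPM through their highest cells: without cell 1, 3 or 6 they averaged 37.7, 73.6 and 18.1 CPM. Nothing is therefore read from the count of 4, and that of Gnao1 rests on cell 3.

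**Figure D5:**
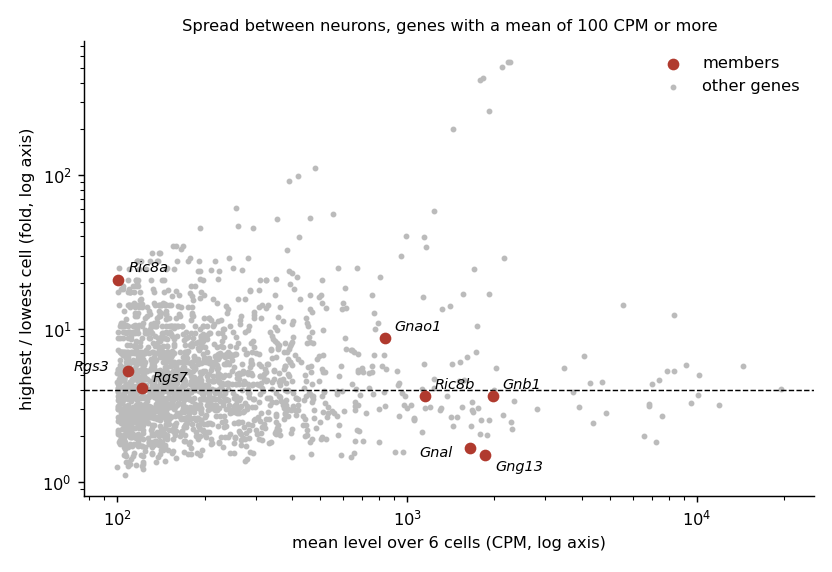
Ratio of the highest to the lowest cell (fold, log axis) against the mean level over 6 cells (CPM, log axis) for the 1919 genes averaging 100 CPM or more; members in red, other genes in grey, dashed line at 4-fold. Gnal and Gng13 lie at 1.67 and 1.5, Gnao1 at 8.69 and Ric8a at 20.9.

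Around the members, Adcy3 was the effector with most counts. Its levels were 1509, 435, 1240, 82.1, 311 and 85.3 CPM in cells 1 to 6, from 13, 15, 152, 5, 7 and 1 counts. The cells with most Gnao1 in CPM, cells 4 and 6, had least Adcy3, which in cell 6 rests on 1 count. The Gnao1 rank of cell 6 is uncertain, since its interval overlapped with those of all cells but cell 3. With TMM cell 2 had more Gnao1 than cell 6. The Adcy3 ratio of cell 4 to cell 3 was 0.0662 (95% interval 0.0212 to 0.158). Of the other 12 adenylyl cyclase and phospholipase C beta genes 6 had any count, none above 8 in all, and Plcb4 followed Adcy3 with a median of 8.21 CPM. Among 20 chaperones and modulators 12 were found. Pde6d, which binds prenylated proteins, led with 171 to 345 CPM, ahead of Gpr158 with a median of 30.4 CPM. All 12 genes of lipid attachment and of the CCT folding complex, which folds beta subunits, were found in at least 1 cell. Their sum lay between 490 CPM in cell 3 and 1067 CPM in cell 4, and Cct2, Cct5 and Cct7 led with medians of 152, 108 and 61.2 CPM.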

How the data were processed

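The data are 6 columns of raw counts, 1 per neuron, as the authors deposited them, and each column was used. Per the labels, read 2 alone was aligned, with barcode and molecular identifier moved to the read names. CASAVA, Bowtie2 2.3.4, HTSeq and the build mm10 are listed, per the submitters' processing notes. Strand setting, treatment of multiple alignments and collapsing of molecular identifiers are not given in the sources consulted, so a count may be a read or a molecule. Intervals and floors cover counting error only, and the intervals are too narrow if molecules were counted repeatedly.

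All 55341 symbols matched GENCODE M21 (GRCm38), which gave positions and exon lengths. CPM, exact 95% Poisson intervals, Clopper-Pearson intervals of shares and exact conditional intervals of ratios were computed with SciPy 1.17.1 (Python 3.11.15). TMM totals came from edgeR 4.0.16 and size factors from DESeq2 1.42.0, for scaling only. The 3' protocol was the reason not to divide CPM by length. Genes named with values in each cell were, per family, the 3 with the highest median, all counted members of families of 5 or fewer, and any with a mean of at least 100 CPM or past 4-fold between cells. The ratio rule was tested on simulated data, but only on genes with higher means than Rgs3, Rgs7 and Ric8a (109, 121 and 100 CPM). Members, lists and rules were chosen with earlier results of these data known. Promoter sequences are from RefSeq (GRCm38.p6).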

Additional observations from a re-analysis of the deposited data

Results flagged for a closer look

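In 28 series of 6 cells the following values lay far from the nearest other cell by Dixon's limit. Chance passes this limit in about 1 of 20 series of normally distributed values, but that rate does not hold for genes with no count in most cells, where a lone count always passes. Grk6 had 341 CPM in cell 6 (4 counts), against at most 8.16 CPM in any other cell, and with it the sum of receptor kinases and arrestins had 341 CPM in cell 6, against at most 106 CPM elsewhere. Ric8a had 512 CPM in cell 6 (6 counts), against at most 82.1 CPM elsewhere, and the share of Ric8b in the counts of both Ric8 genes was 60.0% there, against at least 86.1% elsewhere. Rgs3 had 464 CPM in cell 1 (4 counts), against at most 98.5 CPM elsewhere. Gnb2 had its only count in cell 2, which is 29.0 CPM. The kinase and arrestin sum and the Ric8b share repeat the Grk6 and Ric8a values and are not separate cases. Each of these rests on 1 to 6 counts, and those in cells 1 and 6 stand in the 2 libraries with the fewest counts.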

How the results depend on the processing

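Of 210 recomputed values, 196 stayed within the spread between cells, within 1.5 times the count, or within the interval of a ratio. Reversal was looked for only in ratios of the highest to the lowest cell, as a pair fixed in CPM. None occurred there under other scalings. The ratio of cell 4 to cell 3, which is not among the 210, did reverse for Gnb1, Gng13 and Rgs3. It was above 1 in CPM and below 1 with TMM, and the intervals in CPM included 1 for all of these genes. Many of the 210 are medians with 1 cell left out, which can hardly leave the spread between cells. Leaving out Gnas, at 0 counts, could not change the Gnal share. The count of 196 is therefore no measure of robustness. Detection of members at 10 counts gave 9 members in place of 30. Over cells with at least 20000 counts, 8 members were counted in every cell, in place of 5, and 2 were past 4-fold, in place of 4. The all-gene share past 4-fold, 54.7%, was 34.7% over those cells. The count of members was 2 at a fold of 8 (20.4% of all genes), 1 at a mean of at least 200 CPM (55.6%), 2 after thinning (5.58%; both medians, with 3 counts at 348 CPM in every cell), 4 of 7 with TMM (39.1%) and between 2 and 4 with 1 cell left out, the lowest without cell 3 (44.1%). With TMM the highest to lowest ratios of Gnal, Gnb1 and Ric8b were 2.51, 5.69 and 4.10, against 1.67, 3.63 and 3.65 in CPM. Chosen after seeing the data were the depth limit, except for the count past 4-fold, all alternatives for the Gnao1 and R7 shares, the per-kilobase Ric8b share, and ratios of single genes under other scalings or without a cell. Scaled to nuclear protein-coding genes, the median sums were 4009 CPM for G alpha, 2973 CPM for G beta, 2772 CPM for G gamma and 1982 CPM for Ric8, against 2742, 2153, 1883 and 1333 CPM, as the smaller total requires. With 1 cell left out in turn, members counted in a cell ran from 28 to 30 and in every cell from 5 to 6. The Gnal share of G alpha counts ran from 58.7% to 65.2% and that of the R7 class from 66.1% to 77.0%. Per kilobase of exon the median Gnal share was 55.2%, against 61.9% by counts. No paired analysis was possible because there is 1 group. The depth of cells 1 and 6, where 3 counts are 348 and 256 CPM, limits all statements on RGS, kinase and arrestin genes there. The low number of genes in cell 6 for its total limits those on cell 6 further.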
